A study of Mus musculus with 4 samples.

Results

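The cytosolic ribosomal protein genes encode the protein components of the ribosome that translates nuclear messages in the cytoplasm. They were taken from GENCODE vM21 by name, as the protein-coding genes of chromosomes 1 to 19 called Rpl or Rps followed by a digit, together with Rplp0, Rplp1, Rplp2 and Rpsa, leaving out the Rps6k kinases and names containing -ps. The rule found 82 of 20807 protein-coding genes. Of these, 43 encode proteins of the large subunit and 30 proteins of the small subunit. The other 9 are relatives of a ribosomal protein gene or match the rule by name only (Rpl3l, Rpl10l, Rpl39l, Rpl22l1, Rpl7l1, Rpl36al, Rps27l, Rps27rt and Rps19bp1, whose product binds RPS19), and are counted among the 82 throughout.

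Each ribosome holds 1 copy of nearly every one of these proteins, so the genes are transcribed in step with each other in every growing cell. Their messages belong to the class that starts with a run of pyrimidines, which places their translation under the control of the mTOR pathway. H2A.Z is a variant of histone H2A that is common in the nucleosomes on both sides of the nucleosome-depleted region at a transcription start site (TSS), and the first nucleosome inside the transcribed region is called the +1 nucleosome.

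The peaks came from 2 livers of male C57Bl/6 mice, 8 to 12 weeks old and on a normal diet, both carrying loxP-flanked (fl/fl) Uhrf1 alleles. The WT liver had no Cre. The Uhrf1hepKO liver also carried Alb:Cre, which is driven by the albumin promoter and deletes Uhrf1 in hepatocytes, while the other cells of the liver keep the gene. Each liver gave 1 ATACseq library, in which a transposase cuts accessible DNA, and 1 H2A.Z ChIPseq library of mononucleosomes released by micrococcal nuclease, so that there was 1 library per condition, no replicate and no test of any difference.

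The ATACseq lists held 10582 peaks in WT and 10764 in Uhrf1hepKO, and the H2A.Z lists 51450 and 47135. The lists give no read totals, and the depth of the libraries is unknown. A gene without a peak is one whose signal did not reach the caller's threshold, and it is not shown to lack accessible DNA or H2A.Z. In whole liver, fewer cells with an open site and a less open site in each cell cannot be told apart. The lists offered little check of the labelled tissue. Of 8 hepatocyte marker genes, Alb among them, 0 had an ATACseq peak within 5 kb in WT and 2 in Uhrf1hepKO, and 1 and 0 had an H2A.Z peak, while each list of 5 markers of Kupffer cells, endothelial cells, stellate cells or cholangiocytes had between 0 and 2 genes with a peak. Uhrf1 itself had 1 peak within 5 kb of its TSS in each of the 4 lists, which checks nothing about the deletion.

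The layouts met at these promoters are shown with 3 genes and their sequence from 200 bases upstream of the start of the principal transcript to 10 bases into it, from the RefSeq FASTA of GRCm38. Rpl26, a large subunit protein, had the WT ATACseq peak with the highest fold among the 82 genes and H2A.Z upstream only. Rps3, a small subunit protein that lies at the entry of the message channel, had H2A.Z on both sides. Rplp0, the base of the stalk to which elongation factors bind, had an ATACseq peak and no H2A.Z peak within 5 kb. Capitals mark CCGGAA, the core letters read by ETS factors, and GGGCGG, those read by Sp factors, in either orientation. The windows are chr11:68901435-68901644 on the plus strand for Rpl26, chr7:99483729-99483938 on the minus strand for Rps3 and chr5:115559267-115559476 on the plus strand for Rplp0.
Rpl26: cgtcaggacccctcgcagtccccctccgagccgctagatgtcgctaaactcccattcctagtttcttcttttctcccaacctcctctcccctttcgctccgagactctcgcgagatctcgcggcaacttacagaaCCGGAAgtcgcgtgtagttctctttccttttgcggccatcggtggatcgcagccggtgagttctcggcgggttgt
Rps3: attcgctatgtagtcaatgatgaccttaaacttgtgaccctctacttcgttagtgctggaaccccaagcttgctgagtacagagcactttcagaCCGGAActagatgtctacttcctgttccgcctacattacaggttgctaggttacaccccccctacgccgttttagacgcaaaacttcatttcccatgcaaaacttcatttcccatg
Rplp0: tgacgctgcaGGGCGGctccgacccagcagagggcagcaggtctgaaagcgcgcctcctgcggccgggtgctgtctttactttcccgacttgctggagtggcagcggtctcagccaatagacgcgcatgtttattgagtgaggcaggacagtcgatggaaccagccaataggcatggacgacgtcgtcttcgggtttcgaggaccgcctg

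Rpl26 had 1 peak of each list within 5 kb. The ATACseq peak of the WT liver had a fold of 7.90 over the local background, at percentile 97.8 of its list, and its centre lay 125 bp upstream of the principal TSS. That of the Uhrf1hepKO liver had a fold of 6.42, at percentile 94.0, and its centre lay 48 bp upstream. The H2A.Z summits lay 324 and 320 bp upstream in WT and Uhrf1hepKO, with folds of 6.82 and 6.51. Both livers thus had the same layout, an open start with an H2A.Z nucleosome on its upstream flank and no peak downstream.

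Rps3 had an ATACseq centre 21 bp downstream of its TSS in WT and 129 bp downstream in Uhrf1hepKO. The H2A.Z summits nearest to the TSS lay 214 bp upstream and 230 bp downstream in WT, with folds of 9.75 and 6.09. They lay 205 bp upstream and 215 bp downstream in Uhrf1hepKO, with folds of 12.8 and 6.04. In both livers the upstream summit was the higher of the pair.

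Rplp0 had an ATACseq peak whose centre lay 68 bp upstream of the TSS in WT, with a fold of 6.94 at percentile 95.4 of the list, and 74 bp upstream in Uhrf1hepKO, with a fold of 5.45 at percentile 85.7. It had no H2A.Z peak within 5 kb or in its body in either liver. By comparison, Rplp1, which forms the stalk with Rplp2, had an H2A.Z peak 1001 bp wide in WT and 984 bp wide in Uhrf1hepKO, with summits 280 and 264 bp upstream. Rplp2 had no ATACseq peak, and its H2A.Z summits nearest to the TSS lay 236 bp upstream and 62 bp downstream in WT and 241 bp upstream and 63 bp downstream in Uhrf1hepKO. The 3 stalk genes therefore had 3 different layouts, each kept from one liver to the other.

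The TSS of a gene was taken as its annotated 5′ end. Of the 82 genes, 53 had an ATACseq peak in the 5 kb on either side of it in WT (64.6%, Wilson 95% interval 53.8 to 74.1) against 31.4% of all protein-coding genes. In Uhrf1hepKO 59 genes did (72.0%, 61.4 to 80.5) against 29.0%. H2A.Z peaks lay within 5 kb of 76 genes in WT (92.7%, 84.9 to 96.6) against 54.4%, and of 74 in Uhrf1hepKO (90.2%, 81.9 to 95) against 52.6%. These intervals cover counting error over the genes and not the spread between mice. The members were more often marked than all genes in each of the 4 lists, by more than their intervals. Among protein-coding genes with 53 to 74 CpG dinucleotides within 500 bp of the TSS, the middle range of the members, the shares were 51.5% and 48.2% for ATACseq and 78.6% and 77.0% for H2A.Z, nearer to the members than those of all genes. The members held a median of 64.5 CpGs there and all genes 43.

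**Figure D1:**
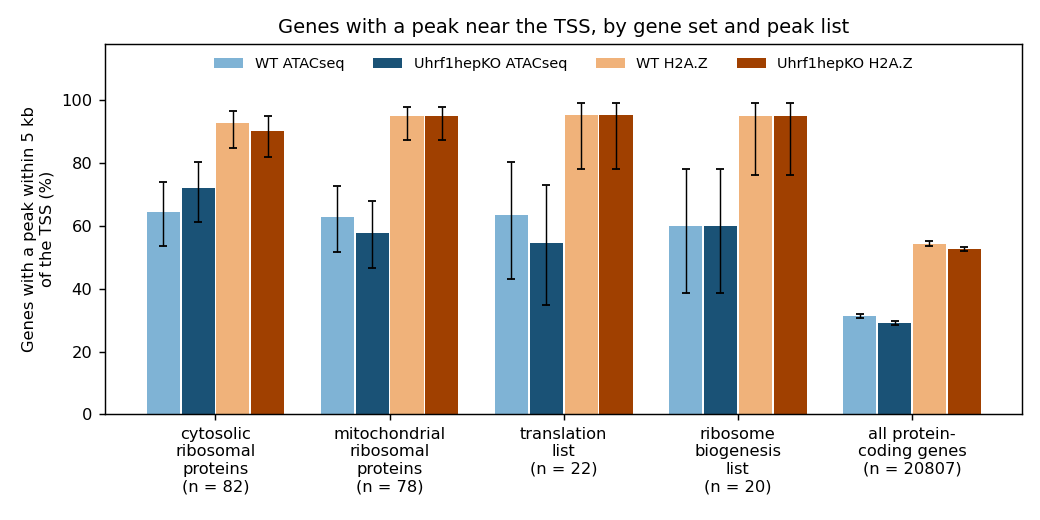
Percent of genes that have a peak no farther than 5 kb from the TSS in each of the 4 lists, for the 82 cytosolic ribosomal protein genes, the 78 mitochondrial ribosomal protein genes, a list of 22 translation genes, a list of 20 ribosome biogenesis genes and all 20807 protein-coding genes. Bars start at 0 and error bars are Wilson 95% intervals. All 4 gene groups stand above all protein-coding genes in every list.

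The 78 mitochondrial ribosomal protein genes (Mrpl and Mrps) serve the separate ribosome of mitochondria. They had shares close to these for H2A.Z and for WT ATACseq, and a lower share for Uhrf1hepKO ATACseq. ATACseq peaks lay near 49 of them in WT (62.8%) and 45 in Uhrf1hepKO (57.7%), and H2A.Z peaks near 74 (94.9%) in both livers. Of the 22 genes of the translation list, which holds elongation factors, initiation factors and other genes of the pyrimidine-start class, 14 and 12 had an ATACseq peak in WT and Uhrf1hepKO and 21 an H2A.Z peak in each liver. Of the 20 genes of the ribosome biogenesis list, which holds nucleolar proteins and subunits of RNA polymerase I, 12 had an ATACseq peak and 19 an H2A.Z peak in each liver. The Wilson intervals of all 4 groups lay above the share of all genes and overlapped with each other.

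The gene for the receptor of laminin that is also a small subunit protein, Rpsa, was among the 44 members with peaks of all 4 lists within 5 kb (53.7%, against 21.9% of all genes). Its ATACseq centres lay 19 bp upstream of the TSS in WT and 20 bp downstream in Uhrf1hepKO, and its H2A.Z summits 238 and 261 bp upstream. The gene for RPS6, the small subunit protein phosphorylated downstream of mTOR, had ATACseq centres 1 and 4 bp downstream of the TSS and its nearest H2A.Z summits 182 and 197 bp upstream. Rpl5, which with Rpl11 binds MDM2 when ribosomes are not assembled, had ATACseq centres 99 and 10 bp downstream. Its H2A.Z summits lay 330 bp upstream and 191 bp downstream in WT, and 339 bp upstream in Uhrf1hepKO, where no downstream summit was called. The folds of these Rpl5 H2A.Z peaks were 4.39 and 4.63 in WT and 4.42 in Uhrf1hepKO, at percentiles 30.8, 38.1 and 26.9 of their lists.

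Rps19, the gene first found mutated in Diamond-Blackfan anaemia, had ATACseq centres 209 and 79 bp downstream of the TSS and its nearest H2A.Z summits 517 and 513 bp upstream. Rpl13a, a large subunit protein that also silences some messages in macrophages, had H2A.Z summits 523 and 700 bp upstream in WT and 729 bp upstream in Uhrf1hepKO.

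Within each list, the median rank of the members' peaks was above that of all genes with a peak. The highest ATACseq peak within 5 kb of each gene had a median fold of 4.96 over 53 members in WT, at percentile 70.6 of the list, against 4.65 and percentile 61.8 over 6537 genes. In Uhrf1hepKO it was 4.62 over 59 members, at percentile 69.1, against 4.43 and percentile 63.8. For H2A.Z the medians were 8.29 over 76 members in WT, at percentile 89.7, against 7.31 and percentile 82.9, and 8.83 over 74 members in Uhrf1hepKO, at percentile 90.8, against 7.44 and percentile 81.6. The quartiles of members and of all genes overlapped in each list. Folds were not compared between lists, since no scaling between libraries was given.

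After Rpl26, the highest folds of the WT ATACseq list among the members belonged to Rps3a1 (7.55) and Rplp0 (6.94), and those of the Uhrf1hepKO list to Rps3a1 (7.04), Rps6 (6.85) and Rpl22l1 (6.76), a paralogue of Rpl22 that is produced in place of it in some cells. For H2A.Z the highest fold in WT was that of Rps9 (14.1), followed by Rpl35a, Rps26 and Rps27 at the same fold of 13.9. In Uhrf1hepKO it was that of Rpl21 (15.3), and those of Rps9 (14.2) and Rpl4 (13.7) were also among the highest. Rps9 thus stood at percentile 99.9 of the WT and percentile 99.8 of the Uhrf1hepKO list.

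**Figure D2:**
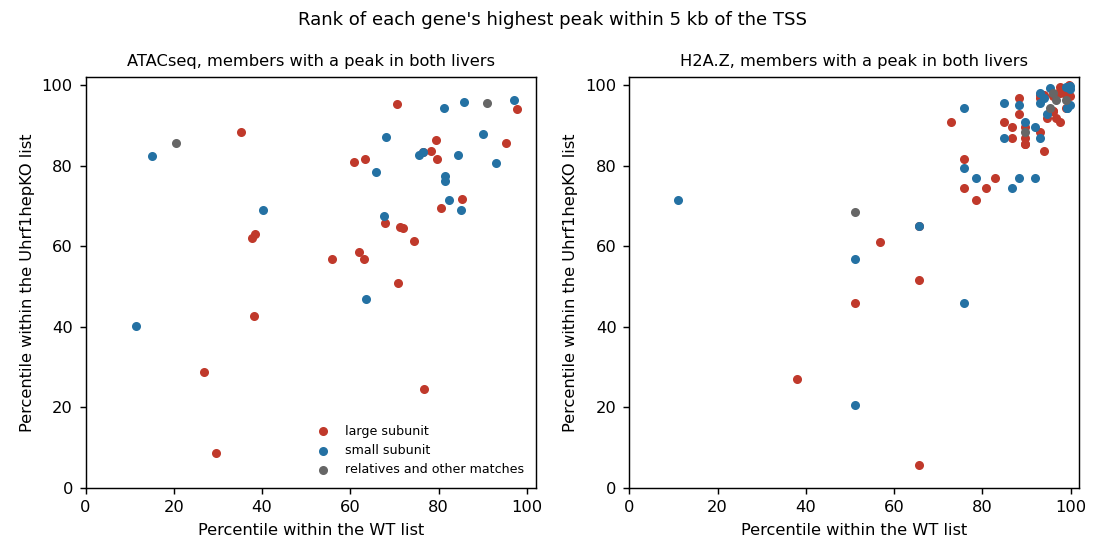
Percentile, among all peaks of its list, of the highest peak near each gene (5 kb on either side of the TSS) in WT (horizontal axis) and Uhrf1hepKO (vertical axis), for ATACseq (47 genes) and H2A.Z (74 genes). Each point is 1 gene, coloured by subunit; H2A.Z points gather in the upper right corner, with medians at percentile 89.7 and percentile 90.8 over all members with a peak, while ATACseq points are spread along both axes.

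The ATACseq peak nearest to the TSS had its centre within 100 bp of it at 37 of 53 members in WT (69.8%), against 42.6% of all genes with a peak, and at 41 of 59 in Uhrf1hepKO (69.5%), against 43.2%. The mitochondrial ribosomal protein genes had 55.1% and 62.2%, the translation list 57.1% and 41.7%, and genes with the same range of CpGs 50.8% and 50.9%. In the ribosome biogenesis list the centre lay this near at 9 of 12 genes in WT and 10 of 12 in Uhrf1hepKO. These shares were higher than those of the members, though over few genes, so centring at the TSS was not particular to the members. H2A.Z summits were rarer in this stretch than ATACseq centres. The nearest summit lay within 100 bp at 12 of 76 members in WT (15.8%, against 10.1%) and at 10 of 74 in Uhrf1hepKO (13.5%, against 9.28%), and the median distance was 183.5 bp upstream in WT and 198.5 bp upstream in Uhrf1hepKO.

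The annotated 5′ end was not always the start of the main transcript. At 6 members the principal transcript, chosen by its APPRIS rank, membership of the basic set, support level and length, began more than 1 kb inside the gene, by 8462 bp at Rpl3, 29141 bp at Rps14, 3593 bp at Rps24, 1994 bp at Rps2, 1919 bp at Rpl17 and 1124 bp at Rps10. At 4 of these an ATACseq peak lay near the principal start in both livers. The ATACseq centres of Rpl3 lay 8452 and 8451 bp inside the gene and 10 and 11 bp upstream of the principal start. The ATACseq centres of Rps24 in this region lay 56 and 57 bp upstream of it, those of Rps2 83 and 80 bp upstream and those of Rpl17 14 and 24 bp downstream. Rps24 also had an ATACseq peak in Uhrf1hepKO whose centre lay 50 bp upstream of the annotated 5′ end, with a fold of 3.70. Rps10 had no ATACseq peak, and an H2A.Z summit lay 49 bp downstream of its annotated 5′ end in WT and 53 bp downstream of its principal start in Uhrf1hepKO. Rps14 had no ATACseq peak, and its H2A.Z summits nearest to the principal start lay 1799 and 1774 bp upstream. For this reason the side of H2A.Z was taken from the principal start.

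**Figure D3:**
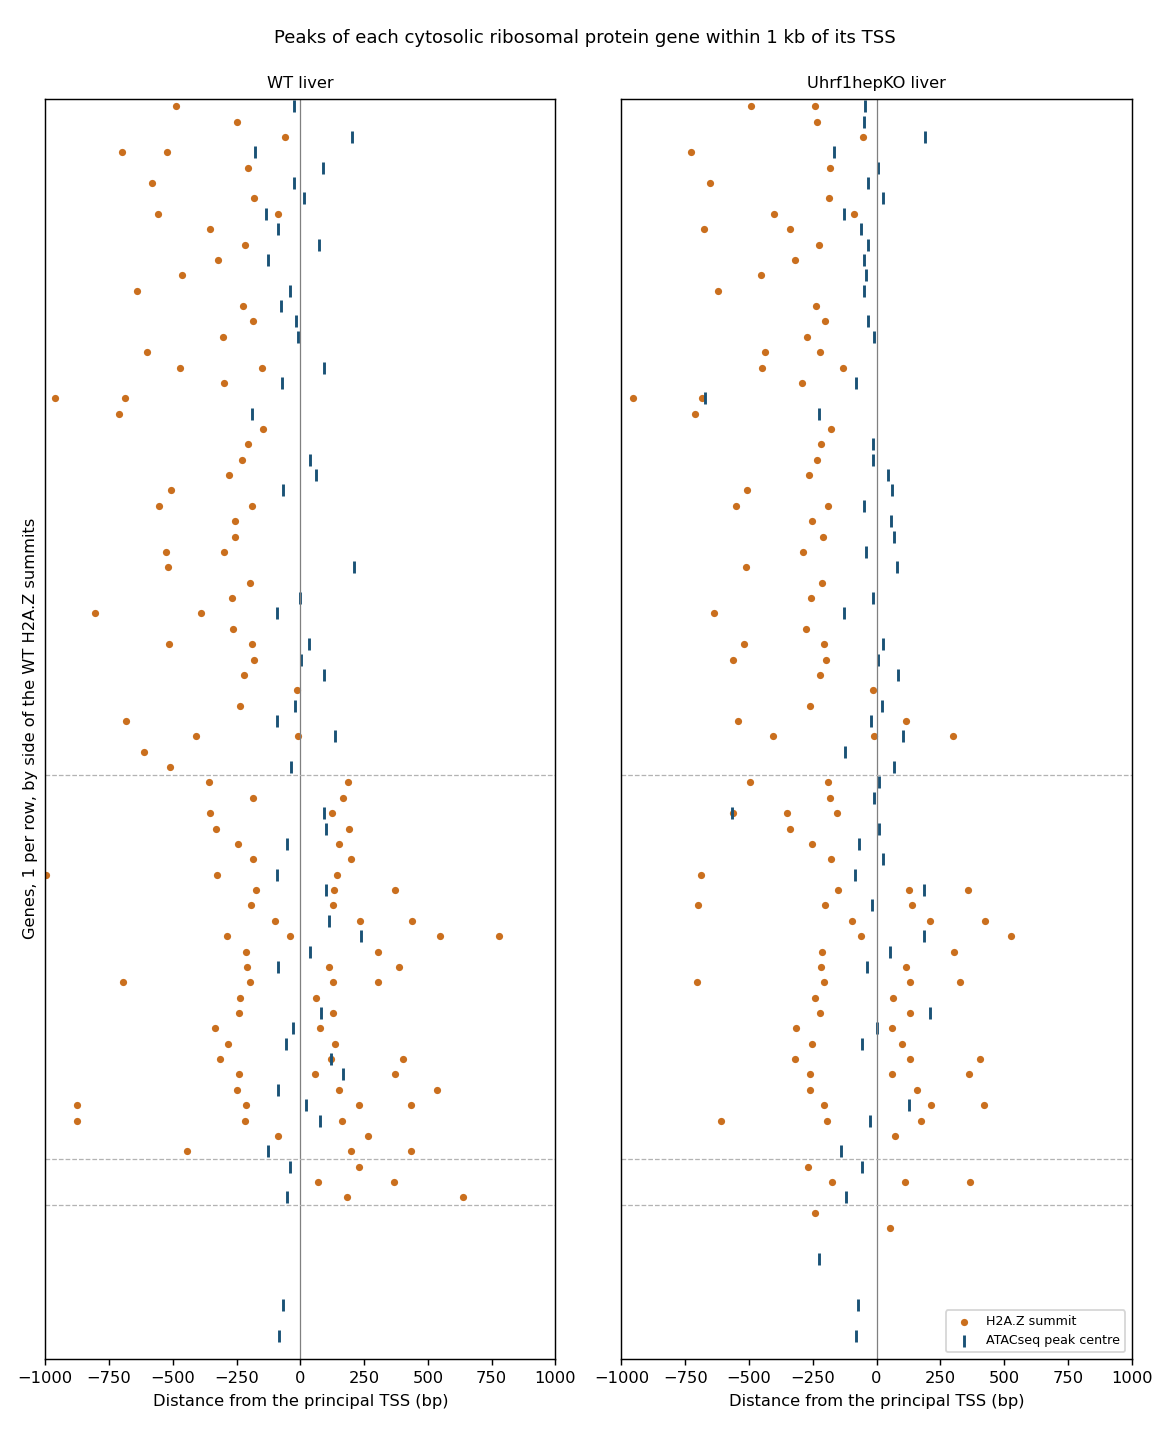
Distance in bp from the principal TSS of every ATACseq peak centre (blue ticks) and H2A.Z summit (orange points) within 1 kb, with 1 row for each of the 82 genes, in the WT and the Uhrf1hepKO liver. Genes are ordered by the side of their WT H2A.Z summits (dashed lines part upstream only, both, downstream only and none); in 44 genes of the WT and 49 of the Uhrf1hepKO panel the points lie left of the start only.

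At 72 members an H2A.Z summit lay within 1 kb of the principal TSS in WT, and at 44 of them (61.1%, 49.6 to 71.5) every summit was upstream of it, against 35.4% of the 9809 genes with a summit. In Uhrf1hepKO this held for 49 of 70 members (70.0%, 58.5 to 79.5) against 38.2%. A downstream summit, where the +1 nucleosome lies, was called at 28 members in WT (38.9%, against 64.6%) and at 21 in Uhrf1hepKO (30%, against 61.8%). The upstream side was marked at 69 of 72 members in WT and 68 of 70 in Uhrf1hepKO. Of all genes with a summit, 8479 of 9809 and 8175 of 9475 were marked there. Among genes with a summit, the members therefore lacked a called downstream peak more often. Counted with or without any summit, a downstream summit was called at 28 of 82 members in WT, against 6336 of 20807 genes. In Uhrf1hepKO it was called at 21 of 82, against 5853 of 20807. The comparison is thus limited to genes with a summit.

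The other gene groups differed on this measure. Of the mitochondrial ribosomal protein genes, 11 of 76 (14.5%, 8.28 to 24.1) in WT and 15 of 75 (20%, 12.5 to 30.4) in Uhrf1hepKO had upstream summits only, so that their intervals and those of the members did not overlap. Of the translation list, 10 of 19 (52.6%, 31.7 to 72.7) and 13 of 20 (65.0%, 43.3 to 81.9) did, with intervals that included the shares of the members. Of the ribosome biogenesis list, 4 of 18 (22.2%, 9.00 to 45.2) and 3 of 18 (16.7%, 5.84 to 39.2) did. Genes with the same range of CpGs had upstream summits only in 28.4% and 32.8%. Of these groups the translation list was the nearest to the members.

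**Figure D4:**
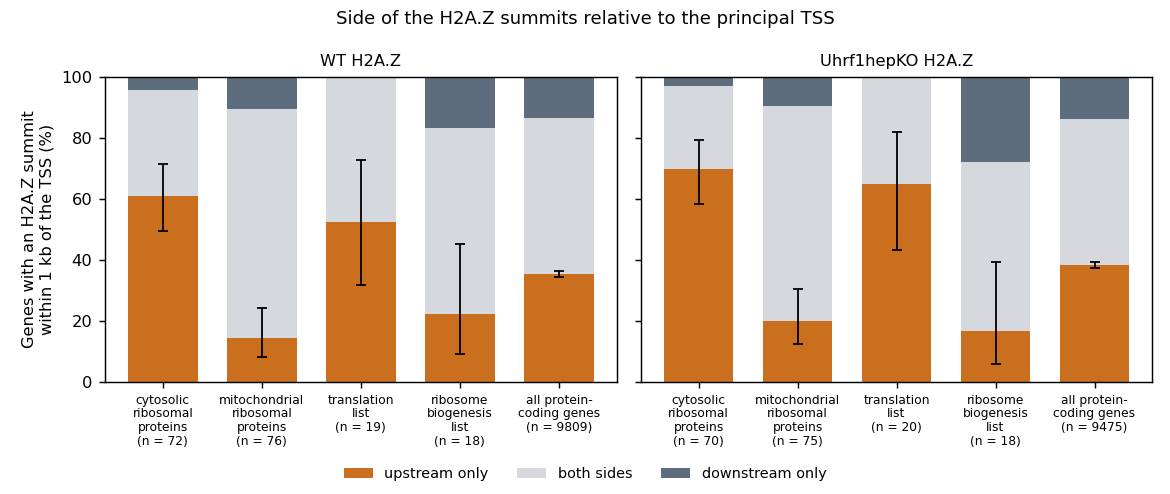
Genes with an H2A.Z summit within 1 kb of the principal TSS, in percent, split by whether their summits lay upstream only (orange), on both sides (light grey) or downstream only (dark grey), in WT (left) and Uhrf1hepKO (right). Error bars are Wilson 95% intervals of the upstream-only share, which was 61.1% and 70.0% for the cytosolic and 14.5% and 20% for the mitochondrial ribosomal protein genes.

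Genes of the translation list with upstream summits only in both livers included Eef1a1, which brings aminoacyl-tRNA to the ribosome, Pabpc1, which binds the poly(A) tail, and Eif4b, which helps the helicase of initiation. They also included Fau, whose product is a fusion of a ubiquitin-like protein with a ribosomal protein. Eef1a1 had no ATACseq peak within 5 kb in either liver. Rack1, a scaffold protein of the small subunit, and Npm1, a nucleolar chaperone, had summits on both sides in both livers. In the biogenesis list, Ncl, Fbl and Nop56 of the nucleolus had upstream summits only in both livers, while Dkc1, Nop58, Pes1 and Wdr12 had summits on both sides in both. The 4 ribosomal protein genes of the X chromosome (Rpl10, Rpl36a, Rpl39 and Rps4x) had upstream summits only at 1 gene in WT and 3 in Uhrf1hepKO.

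By subunit, upstream summits only were found at 28 of 40 large subunit genes (70.0%) and 14 of 27 small subunit genes (51.9%) in WT, and at 29 of 39 (74.4%) and 18 of 27 (66.7%) in Uhrf1hepKO. The intervals of the subunits overlapped in both livers (54.6 to 81.9 and 34.0 to 69.3 in WT). In both livers 40 members had upstream summits only, among them Rpl3, Rpl11, Rpl13a, Rplp1, Rps6, Rps19 and Rpsa, and 16 had both sides, among them Rplp2 and Rps3. From WT to Uhrf1hepKO, 7 members passed from both sides to upstream only, among them Rpl4, Rpl5, Rpl13, Rpl23 and Rps28, and 2 the other way, among them Rpl41. The downstream WT peaks of these 7 had folds between 4.39, as at Rpl13, at percentile 30.8 of the list, and 6.34 at Rpl4, at percentile 72.9. The share of all genes with upstream summits only was likewise higher in the Uhrf1hepKO list, and with 1 library per condition the difference between livers was not tested. Genes that kept or changed sides between livers were counted among the members only. Whether these counts differ from those of other genes is therefore not known.

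Where both sides had summits, the median gap between them was narrower at the members than at all genes. The nearest upstream summit lay a median of 246 bp from the principal TSS in WT (quartiles 353 and 192 bp upstream) and the nearest downstream summit 151.5 bp from it, with a median gap of 396 bp over 25 members against 531 bp over 5006 genes. In Uhrf1hepKO the medians were 234 bp upstream and 130 bp downstream, with a gap of 353 bp over 19 members against 537 bp. For the mitochondrial ribosomal protein genes the gaps were 449 and 458 bp. The quartiles of the gap at members and at all genes overlapped. They were 332 to 470 bp against 375 to 741 bp in WT, and 315.5 to 419.5 bp against 379 to 758 bp in Uhrf1hepKO. The median fold also differed by side. In WT the highest upstream peak had a median fold of 8.29 over 69 members and the highest downstream peak 5.73 over 28. All genes had 7.07 and 5.61, and the mitochondrial ribosomal protein genes 7.92 and 6.58. In Uhrf1hepKO the medians of the members were 8.83 over 68 and 6.51 over 21, against 7.20 and 5.81 for all genes. The 2 sides cover different sets of members, and their quartiles overlapped (6.82 to 9.99 upstream and 5.12 to 8.47 downstream in WT).

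**Figure D5:**
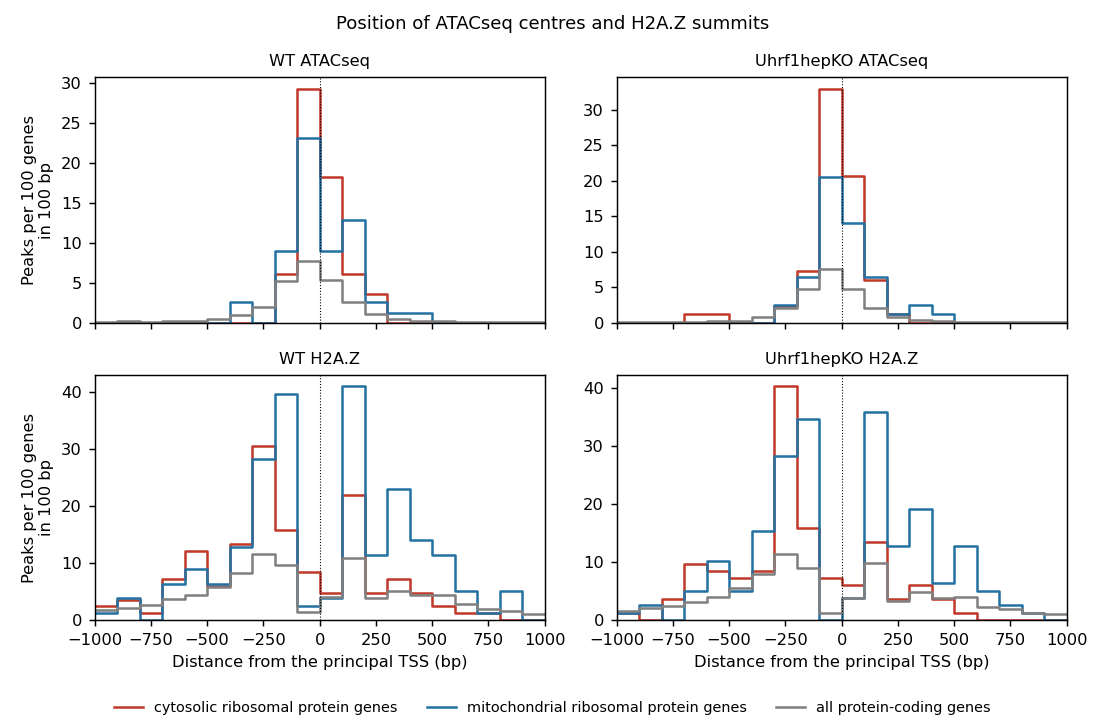
Number of ATACseq peak centres and H2A.Z summits per 100 genes in steps of 100 bp around the principal TSS, for the cytosolic (red) and mitochondrial (blue) ribosomal protein genes and all protein-coding genes (grey). In the step from 100 to 200 bp downstream the WT H2A.Z list held 22 summits per 100 cytosolic and 41.0 per 100 mitochondrial ribosomal protein genes, while the step from 300 to 200 bp upstream held 30.5 and 28.2.

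The measure was checked against how it was built. Counting the span of the peaks and not their summits, 41 of 72 members (56.9%) in WT and 47 of 70 (67.1%) in Uhrf1hepKO had a peak over the upstream and none over the downstream 1 kb, against 33.6% and 36.7% of all genes and 14.5% and 20% of the mitochondrial ribosomal protein genes. The exons of ribosomal protein genes have processed copies in the genome, where reads may be placed more than once. From 51 to 250 bp downstream of the principal TSS, 9.14% of the 32-mers of the members occurred more than once in the genome, against 1.92% at the mitochondrial ribosomal protein genes, and 47 of 82 members had none. Among members with none, 24 of 42 (57.1%, 42.2 to 70.9) in WT and 24 of 41 (58.5%, 43.4 to 72.2) in Uhrf1hepKO had upstream summits only, against 10 of 64 (15.6%) and 14 of 63 (22.2%) of the mitochondrial genes with none. These shares of the members with none were below those of all members (61.1% in WT and 70.0% in Uhrf1hepKO), so the remaining members had higher shares. The livers also differed less among members with none than among all members. The part that repeated sequence plays in the remaining members was not tested.

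An ATACseq peak within 5 kb was found in both livers at 47 members (57.3%, against 24.0% of all genes), in WT only at 6 (7.32%, against 7.44%) and in Uhrf1hepKO only at 12 (14.6%, 8.57 to 23.9, against 5.07%), while 17 members had none in either liver (20.7%, against 63.5%). The 6 were Rpl24, Rpl28, Rpl32, Rps26, Rps27a and Rps27l, and their peaks had low folds, between percentile 11.7 and percentile 44.7 of the WT list. The 12 were Rpl8, Rpl11, Rpl13, Rpl23, Rpl23a, Rpl27, Rpl35a, Rpl38, Rps13, Rps15, Rps16 and Rps18, between percentile 12.2 and percentile 86.7 of the Uhrf1hepKO list with a median at percentile 52.7. Peaks found in both livers had medians at percentile 72.0 and percentile 77.5. Over all genes, fewer had an ATACseq peak in Uhrf1hepKO than in WT, while the Uhrf1hepKO list held more peaks in all (10764 against 10582). The depth of both libraries is unknown, and its part in the 12 members was not tested.

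Rpl13 had the highest fold of the 12, 5.54 with the centre 8 bp downstream of the TSS. Its H2A.Z peaks were present in both livers, 2 within 5 kb in each. Rpl38, a large subunit protein whose loss alters the axial skeleton of the mouse, was the only member with a peak in 1 liver for both assays. It had an ATACseq peak in Uhrf1hepKO, with a fold of 4.14 and a centre 38 bp upstream of the TSS, and an H2A.Z peak in WT, whose fold was 4.87 and whose summit lay 527 bp upstream. H2A.Z peaks within 5 kb were present in both livers at 74 members (90.2%, against 50.4%), in WT only at Rpl38 and Rpl7a, 2 members (2.44%, against 3.99%), and in Uhrf1hepKO only at 0 (against 2.17%), where a count of 0 allows a share of up to 3.66%. Neither liver had one at 6 members (7.32%, against 43.4%). The H2A.Z peaks of Rpl38 and Rpl7a were at percentiles 44.8 and 6.27 of the WT list, with folds of 4.87 and 3.41.

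Peak by peak, 45 of the 53 WT ATACseq peaks near the members (84.9%, 72.9 to 92.1) overlapped an Uhrf1hepKO peak by at least 1 bp, against 72.9% of such peaks near all genes. Of the 61 Uhrf1hepKO peaks, 45 (73.8%, 61.6 to 83.2) overlapped a WT peak, against 78.0%. For H2A.Z, 120 of 154 WT peaks (77.9%, against 78.3%) and 121 of 145 Uhrf1hepKO peaks (83.4%, against 84.4%) had a partner. The overlapping ATACseq peaks were shifted by a median of 25 bp and the H2A.Z summits by 13.5 bp. The intervals of the members reached or included the share of all genes in each of the 4 directions.

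In the gene bodies, from the first to the last base of the gene, ATACseq peaks overlapped 52 members in WT (63.4%, against 31.3%) and 58 in Uhrf1hepKO (70.7%, against 29.6%). Most of these peaks lay over or near the start. Past the first 500 bp, 7 members had an ATACseq peak in each liver (8.54%, against 13.1% and 13.2%). H2A.Z peaks overlapped the bodies of 38 members in WT (46.3%, against 47.8%) and 31 in Uhrf1hepKO (37.8%, against 45.0%), and past the first 500 bp those of 11 (13.4%, against 38.2%) and 10 (12.2%, against 35.6%). The mitochondrial ribosomal protein genes had H2A.Z peaks past the first 500 bp at 44 of 78 (56.4%) in WT and 37 (47.4%) in Uhrf1hepKO.

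The members are short genes, with a median length of 3399.5 bp against 17629 bp for all and 7899.5 bp for the mitochondrial genes, so the counts were also read per length. Past the first 500 bp, H2A.Z peaks covered 1.25% of the bases of the members in WT and 1.45% in Uhrf1hepKO, against 1.47% and 1.38% for the mitochondrial ribosomal protein genes and 0.371% and 0.349% for all genes. ATACseq peaks covered 0.327% of the bases of the members in each liver, against 0.277% and 0.225% for the mitochondrial genes and 0.0835% and 0.0809% for all genes. Per length the members therefore lay above all genes in each list, although fewer of them had such a peak. These bases were counted from the annotated 5′ end, so they include peaks at principal starts inside the gene. In both ATACseq lists they took in the peaks near the principal starts of Rpl3, Rpl17, Rps2 and Rps24, and in WT part of that of Rpl15. The ATACseq peaks in this part of Rpl18 lay nearest to the start of Sphk2. The share covered without such peaks was not computed, so the ATACseq values do not describe bodies away from starts. Among the 4061 bp covered by H2A.Z in WT were the peaks near the principal starts of Rpl17 (764 bp wide) and Rpl3 (722 bp wide). The peaks in bodies beyond 5 kb of the TSS were few, 2 in each ATACseq list and 6 and 8 in the H2A.Z lists, and all but 1 lay in the 3 longest genes. Rps14 (31449 bp) held 3 and 4 of the H2A.Z peaks, Rpl11 (25164 bp) 2 in each list and Rpl3 (14078 bp) 1 in each list. The remaining peak, of the Uhrf1hepKO H2A.Z list, lay at the far end of Rpl3l. By annotated 5′ ends, the peaks of Rpl11 lay nearest to the start of Eloa, and those of Rps14 nearest to that of Ndst1. Principal starts inside a gene, such as that of Rps14, were not considered in this.

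The members with the most H2A.Z peaks within 5 kb were Rpl41, which encodes the smallest ribosomal protein, with 7 in WT and 4 in Uhrf1hepKO, Rps24 with 5 in each, Rps3a1 with 5 and 4 and Rps3 with 4 and 5. At Rpl41, 3 of the 7 WT peaks were nearest to the start of its neighbour Zc3h10. Members without a peak of any list within 5 kb of the annotated 5′ end numbered 4 (4.88%, against 40.6% of all genes): Rps14, Rpl10l, Rpl39l and Rps27rt. Of these, Rps14 had H2A.Z summits within 5 kb of its principal start, which lies 29141 bp inside the gene. Rpl10l and Rpl39l are copies used mainly in the testis, and Rps27rt is a retrotransposed copy of Rps27 whose 32-mers downstream of the start all occur elsewhere (100%, up to 10 times).

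The 9 relatives and other matches of the name rule were looked at beside the 73 subunit genes. An ATACseq peak within 5 kb was found at 3 of the 9 in WT and 2 in Uhrf1hepKO, and at 50 and 57 of the 73. An H2A.Z peak was found at 6 of the 9 in each liver, and at 70 and 68 of the 73. Rpl22l1 had the highest ATACseq folds of these, 6.22 and 6.76, with H2A.Z summits 215 and 224 bp upstream. Rpl7l1 had H2A.Z peaks on both sides in both livers and no ATACseq peak. Rpl3l, the form of Rpl3 in striated muscle, had H2A.Z peaks only 3161 and 3169 bp upstream at the nearest, closest to the start of Ndufb10. Of 249 ribosomal protein pseudogenes named by the same rule, 0 had an ATACseq peak over them in either liver, and 4 (1.61%) and 2 (0.803%) an H2A.Z peak.

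A protein-coding neighbour on the other strand started within 1 kb upstream at 9 members (11%, 5.88 to 19.6, against 6.97% of all genes). The starts of Rps28 and Ndufa7 stood 10 bp apart, those of Rps27 and Rab13 44 bp, those of Rpl9 and Lias and of Rps2 and Rnf151 53 bp each, and those of Rps24 and Polr3a 67 bp. The other pairs were Rpl36al with Mgat2 (74 bp), Rpl7a with Med22 (87 bp), Rpl35a with Iqcg (235 bp) and Rpl4 with Zwilch (271 bp). At such a pair a summit upstream of one gene can lie downstream of the start of the other. The distances were taken between annotated 5′ ends. The principal start lies 1994 bp inside Rps2, 3593 bp inside Rps24 and 565 bp inside Rpl35a. Without these 9 genes, 40 of 64 members in WT (62.5%) and 44 of 64 in Uhrf1hepKO (68.8%) had upstream summits only. Those sides were taken from the principal start.

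The sequence at the starts was then searched. A pyrimidine start, counted as TCTTT or CCTTT or CTTTT on the sense strand beginning within 10 bp of any annotated transcript start, was found at 46 members (56.1%, 45.3 to 66.3, against 21.3% of all genes), at 14 of 22 genes of the translation list (63.6%) and at 13 of 78 mitochondrial ribosomal protein genes (16.7%). The translation list holds genes picked as belonging to this class, so its share was partly set by that choice. These strings overlap, and 1 start can match several of them. The members had a median of 6 annotated transcripts and all genes 4, which gives more starts to match. At the 5′ end of the gene alone it was found at 14 members (17.1%, against 6.11%), and at the principal start alone at 15 (18.3%, 11.4 to 28.0, against 5.56%). Windows of 30 bases around the principal start, from 15 bases before it, held such a run in 3 of the 11 genes chosen for description, and these are shown with the run in capitals. They are chr5:107900487-107900516 on the plus strand for Rpl5, chr9:61914528-61914557 on the minus strand for Rplp1 and chr9:120127674-120127703 on the plus strand for Rpsa.
Rpl5: gcatcttgaggcctacagccacTCTTTctc
Rplp1: cgcgcaggcgtatatgaTCTTTTcctcagc
Rpsa: tctgcgcgtgcgccagaggCTTTTtccgga

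The run began 7 bases after the annotated start at Rpl5, 2 at Rplp1 and 4 at Rpsa. The H2A.Z layout was then compared between members with and without such a start. Upstream summits only were found at 24 of 41 members with a pyrimidine start (58.5%, 43.4 to 72.2) and 20 of 31 without (64.5%, 46.9 to 78.9) in WT, and at 28 of 42 (66.7%) and 21 of 28 (75%) in Uhrf1hepKO. The intervals overlapped, and over all genes the shares were 33.7% with and 36.0% without it in WT.

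Of 6 motifs searched on both strands from 250 bp upstream to 50 bp downstream of the TSS, CCGGAA was found at 34 members (41.5%, against 17.9% of all genes) and at 52.6% of the mitochondrial ribosomal protein genes. CACGTG, the E-box read by Myc and other factors, was found at 11 members (13.4%, against 7.82%) and GCCATCTT, read by YY1, at 6 (7.32%, against 2.93%). TATAAA was found at 8 (9.76%, against 12.7%), GGGCGG at 36 (43.9%, against 43.7%) and the NRF1 palindrome at 1 (1.22%, against 1.25%). No motif contains another, although neighbouring matches can share letters. A match is a description of the letters and not of binding.

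Ribosomal protein genes are also hosts of small nucleolar RNAs (snoRNAs), which guide the modification of ribosomal RNA and are cut out of the introns. By the annotation, 28 members held a snoRNA on the same strand (34.1%, 24.8 to 44.9, against 1.26% of all genes), 56 snoRNAs in all, and 0 of the 78 mitochondrial ribosomal protein genes did. Rpl4 held 5 and Rpl13a 4.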

How the data were processed

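ATACseq and H2A.Z ChIPseq peaks of 1 WT and 1 Uhrf1hepKO liver were analysed, 4 lists in all. Mapping to GRCm38 was done by the authors with BWA-MEM, followed by Picard for cleaning and sorting. Peaks were called with MACS2, separately for every library, and the files are in its broad format for ATACseq and its narrow format for H2A.Z. The submitters' processing notes also name Trimmomatic and FastQC 0.11.5. Per the file formats, the deposited peaks carry a display score, a fold enrichment ratio over the local background (signal value), -log10 p-values and -log10 q-values and, for H2A.Z, the distance of the summit from the peak start. Only the positions, folds and q-values were used here. No read counts or library totals were used here, and the depth is unknown. The highest q-value was 0.0997 and 0.0993 in the ATACseq lists and 0.0500 and 0.0489 in the H2A.Z lists (WT and Uhrf1hepKO).

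Members lie on chromosomes 1 to 19, and the peaks used also took in the sex chromosomes. Peaks were assigned to a gene when they overlapped the 5 kb on either side of its TSS, or the gene body. The gene start nearest to a peak was found among annotated 5′ ends of protein-coding genes. The position of a peak was its centre for ATACseq and its summit for H2A.Z. Shares carry Wilson 95% intervals, and the limit of a count of 0 was 3 counts. No test was made, because each condition had 1 library. Genes came from GENCODE vM21 and sequences from the RefSeq FASTA of GRCm38.p6. Python 3.11.15, numpy 2.4.6, scipy 1.17.1, pysam 0.24.0 and matplotlib 3.10.9 were used. Tested on simulated data, the assignment found 200 of 200 planted peaks among 400 genes.

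The members and lists were chosen with earlier results of these data known. Genes named were 11 fixed members, the relatives, the 3 highest folds per list, members with no peak, with a peak in 1 liver for both assays, with the most H2A.Z peaks or head-to-head neighbours, and the 3 longest genes. Members named as the content of a count, and Rpl13 and the named genes of the translation and biogenesis lists, were chosen after their values were seen, as were the principal TSS, the span of peaks and the recurring 32-mers. Some genes are counted but not reported by name here. Alternatives were a 500 bp window, peaks whose fold reached the median of their list, the nearest gene only and other definitions of the body, the TSS and the pyrimidine start.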

Additional observations from a re-analysis of the deposited data

How the results depend on the processing

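Over 17 results and 103 alternatives, 81 values moved by less than the interval or spread of the result and 22 by more. All settings on the side of H2A.Z stayed within the interval of the result. The Uhrf1hepKO share without genes with recurring 32-mers downstream, 58.5% against 70.0%, stood at the lower limit of that interval (58.5%). With peaks that reached the median fold of their list, the members with an ATACseq peak within 5 kb fell to 45.1% in WT, 59.8% in Uhrf1hepKO and 42.7% in both livers, and those with one in the gene body to 45.1% and 58.5%. Without the first 500 bp, the body shares were 8.54% in both ATACseq lists and 13.4% and 12.2% in the H2A.Z lists, and with the midpoint inside the gene the ATACseq shares were 39.0% and 41.5%. Counting only peaks nearest to the member gave 82.9% and 76.8% for H2A.Z within 5 kb. A window of 500 bp gave 81.7% in Uhrf1hepKO and 80.5% in both livers for H2A.Z. Taken from the principal TSS, the median distance of ATACseq centres passed from 38 to -17.5 bp in WT and from 1 to -23 bp in Uhrf1hepKO. For the H2A.Z peak with the highest fold it was -239 bp in WT and -228 bp in Uhrf1hepKO. The pyrimidine start was found at 17.1% at the 5′ end of the gene only, 18.3% at the principal TSS only, 80.5% within 25 bp and 22% with CTTTT only. Fewer peaks, bases or starts enter by construction in all but the median distances and the 25 bp setting, which admits more starts, and for the distances the cause was not tested. No paired analysis was possible because each condition had 1 library per assay and no result comes from a test. Sites under the calling threshold are not in the lists, and the unknown depth limits any reading of a peak found in 1 liver.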
